A study of Rattus norvegicus with 43 samples.

Results

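Immediate early genes other than the AP-1 subunits were followed from intact rat liver into hepatocyte culture. The 10 genes taken were Egr1, Ier2, Ier3, Klf6, Btg2, Zfp36, Myc, Rhob, Nr4a1 and Dusp1, a fixed list of named genes. This list and the other gene lists below were chosen with earlier results of these data known. Counts of genes called are therefore a description beside the shares of all genes, not a test. Each of the 10 genes was read from the probe set whose only listed gene was that gene, and where a gene had several, from the brightest of them, judged by its log2 signal averaged over all arrays. In this way 9 of the 10 genes had a probe set, among 14217 genes with such a probe set on the array, and Btg2, an antiproliferative gene, was not analysed here. All 9 passed the filter on low signals, a signal above the median of its array in 5 or more of 43 arrays, as did 10643 genes in all.

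The samples came from 3 male Sprague Dawley rats, which were given sodium pentobarbital, and no test compound was added in any group. The liver group was a lobe tied off and taken before the perfusion that frees the cells, so it held every cell type of the organ. The other groups were rat primary hepatocytes (RPH) of the same 3 rats, namely the uncultured cell pellet (0 h) and cells plated for 4, 24 and 48 h. The plated cells were kept in William's E medium with insulin, transferrin and dexamethasone, which contained serum for the first 4 h and none afterwards. Each of the 15 samples, 1 rat in 1 group, was hybridised to 3 arrays, except that rat 3 at 4 h and rat 2 at 48 h had 2 arrays each. These repeat arrays of 1 RNA were averaged on the log2 scale and counted as 1 sample, so every group had n = 3 rats. All signals below are MAS5 signals on the linear scale to which the authors set every array, and a group mean is the mean of 3 log2 values turned back to that scale.

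Immediate early genes are switched on within minutes of a growth factor, a stress or a wound, from transcription factors already present in the cell and without new protein being made first, and their short-lived mRNAs usually fall again soon. In liver they are best known from the hours after partial removal of the organ. The genes here code for transcription factors (Egr1, Klf6, Myc, the orphan nuclear receptor Nr4a1), for regulators that damp the response (Zfp36, which binds AU-rich mRNAs and speeds their decay, and Dusp1, a phosphatase that switches off MAP kinases), for the small GTPase RhoB, and for Ier2 and Ier3, a nuclear protein of the early response and a regulator of cell survival. Kinase cascades reach such genes through DNA elements close to their start, among them the CArG box bound by serum response factor and the cyclic AMP response element, whose core is TGACG.

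The 250 bases before the RefSeq start are shown for 3 genes that moved together, Ier2, Zfp36 and Nr4a1, and for Klf6 and Rhob, which moved together in another way. Sequences are from RefSeq, build GRCr8, on the strand of the gene. Capitals mark TGACG on either strand and the CArG box.
Ier2, chr19:40399123-40399372, + strand: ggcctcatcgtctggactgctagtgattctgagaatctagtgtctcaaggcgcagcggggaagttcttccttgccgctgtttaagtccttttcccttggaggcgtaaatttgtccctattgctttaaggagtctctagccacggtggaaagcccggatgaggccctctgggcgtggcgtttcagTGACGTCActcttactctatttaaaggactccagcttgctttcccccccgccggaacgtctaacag
Zfp36, chr1:92799109-92799358, - strand: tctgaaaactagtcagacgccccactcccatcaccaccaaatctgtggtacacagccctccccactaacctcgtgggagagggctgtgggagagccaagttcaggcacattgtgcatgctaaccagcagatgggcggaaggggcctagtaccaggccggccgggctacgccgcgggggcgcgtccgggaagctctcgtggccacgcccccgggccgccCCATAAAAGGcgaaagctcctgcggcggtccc
Nr4a1, chr7:134259888-134260137, + strand: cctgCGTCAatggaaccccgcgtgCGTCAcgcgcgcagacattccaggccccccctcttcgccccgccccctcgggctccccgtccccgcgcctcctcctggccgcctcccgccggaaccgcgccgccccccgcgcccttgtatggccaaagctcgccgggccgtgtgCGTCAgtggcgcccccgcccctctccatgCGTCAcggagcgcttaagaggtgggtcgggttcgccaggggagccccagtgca
Klf6, chr17:69458479-69458728, - strand: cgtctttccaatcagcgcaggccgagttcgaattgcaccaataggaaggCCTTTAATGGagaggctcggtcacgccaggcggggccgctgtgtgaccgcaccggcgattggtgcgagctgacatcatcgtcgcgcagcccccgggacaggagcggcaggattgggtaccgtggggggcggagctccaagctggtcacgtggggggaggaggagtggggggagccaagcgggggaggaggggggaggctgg
Rhob, chr6:37085205-37085454, - strand: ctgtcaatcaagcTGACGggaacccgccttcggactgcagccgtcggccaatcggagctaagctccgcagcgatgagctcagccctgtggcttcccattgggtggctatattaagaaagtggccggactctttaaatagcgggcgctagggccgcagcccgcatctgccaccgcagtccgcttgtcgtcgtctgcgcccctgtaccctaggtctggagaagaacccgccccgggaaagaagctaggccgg

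Of the 9 measured genes, 7 had a sequence in the RefSeq table, and both Ier3 and Myc had none. All motifs were searched on both strands. TGACG was in 5 of the 7 (Egr1, Ier2, Rhob, Nr4a1 and Dusp1), against 18.2% of all 33469 promoters of this length. Nr4a1 held 4 copies of it, all read from the opposite strand. The full palindrome TGACGTCA, which holds TGACG on each strand, was in Ier2 and Dusp1, against 1.59% of all promoters. The CArG box was in Egr1, Klf6 and Zfp36, against 1.5% of all promoters. In Zfp36 it lay 23 to 32 bases before the start and in Klf6 192 to 201 bases before it, and Egr1 held 2. The Egr1-type motif GCGNGGGCG was in Zfp36 and Nr4a1 (4.29% of all promoters), the GC box GGGCGG, which can overlap that motif, in 5 of the 7 (30.5%), the E box CACGTG in Klf6 and Dusp1 (5.59%), and neither TGANTCA (6.34%) nor TATAAA (12.9%) was in any of the 7. A match is a run of letters in this window and was not tested for binding.

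In liver and at 0 h, 2 arrays of rat 1 went against their labels. Array 3 of the rat 1 liver gave an Egr1 signal of 27108, where arrays 1 and 2 of the same RNA gave 3282 and 3464. Array 3 of rat 1 at 0 h gave 3784, where arrays 1 and 2 gave 20709 and 23966. Each of the 2 arrays was thus at the level of the other group. The same held for Ier2, at 9848 on liver array 3 against 1135 and 1191, and at 870 on 0 h array 3 against 7857 and 6956. It held as well for the summed signal of 6 red cell genes (haemoglobins and other erythroid markers), which was 552 on liver array 3 and 36980 to 62618 on the other 8 liver arrays, and 35012 on 0 h array 3 and 237 to 752 on the other 8 arrays at 0 h. Over all genes tested, liver array 3 correlated at r = 0.959 with the other liver arrays of rat 1 and at up to 0.974 with the 0 h arrays of rat 1. The 0 h array 3 correlated at 0.955 to 0.961 with the other 0 h arrays of rat 1 and at up to 0.979 with the liver of rat 1. In the other 13 samples, repeat arrays of 1 RNA correlated at 0.968 to 0.983. No array was relabelled. The main values are those of the arrays as labelled, and the log2 differences of the 9 genes that rest on liver or 0 h are also given without these 2 arrays, with rat 1 then measured on 2 arrays in each of these groups, an alternative chosen after the data were seen.

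**Figure D1:**
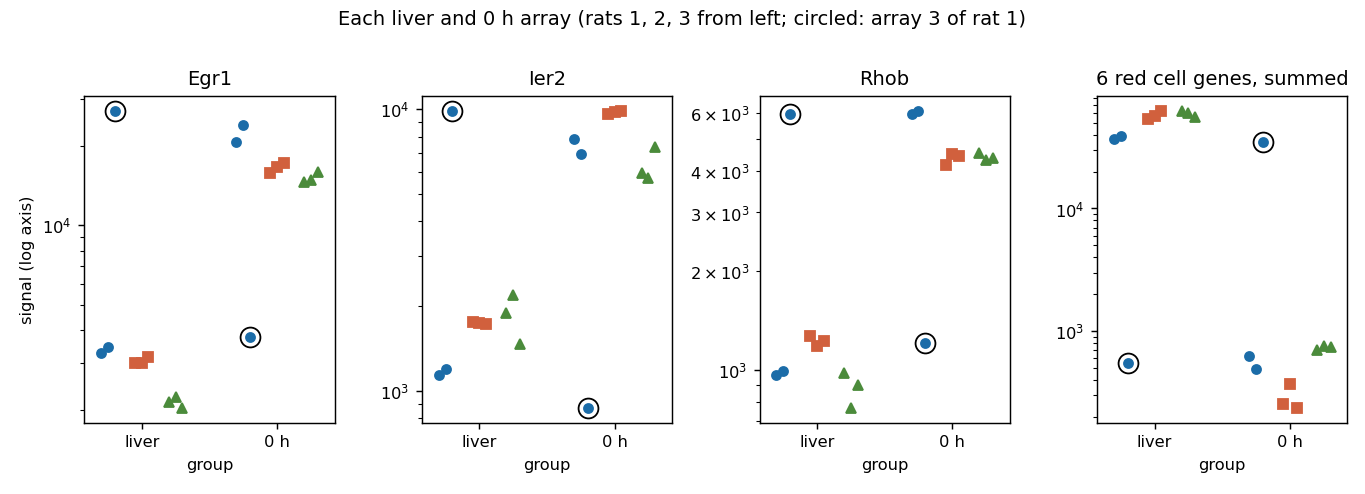
Signal (log axis) on each of the 18 liver and 0 h arrays for Egr1, Ier2, Rhob and the sum of 6 red cell genes; circles, squares and triangles are rats 1, 2 and 3, and a black ring marks array 3 of rat 1. The ringed arrays lie with the opposite group in all 4 panels, for example at an Egr1 signal of 27108 in liver and 3784 at 0 h.

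The samples also differed in their makeup and RNA. The summed signal of 18 sinusoidal endothelial markers with a probe set (of 21 listed) was 19680 to 24319 in liver, 11778 to 17583 at 0 h, 4799 to 7613 at 4 h and 1070 to 1821 at 48 h. That of 15 Kupffer cell and macrophage markers (of 20) went from 38279 to 49908 in liver to 8540 to 10772 at 48 h, and that of 20 stellate cell and fibroblast markers from 14395 to 27260 in liver to 2316 to 4994 at 4 h and 15378 to 18633 at 48 h. Signals of the red cell list went from 7858 to 59464 in liver to 215 to 1805 at 0 h, and 6 neutrophil genes (of 9) summed to 239 to 682 in liver and 85.3 to 128 at 0 h. The red cell limits 7858 and 1805 are of rat 1 with its array 3. Its arrays 1 and 2 gave 36980 and 39171 in liver and 630 and 492 at 0 h. For the endothelial markers the limits 19680 and 17583 are also of rat 1. Its arrays 1 and 2 gave 22846 and 23239 in liver and 15974 and 15544 at 0 h. The summed signal of 19 hepatocyte genes (of 20), albumin and apolipoproteins among them, was 604030 to 655139 in liver, 532652 to 639931 at 0 h and 286806 to 309720 at 48 h. Between liver and 0 h none of the 19 passed, whereas 2 of 18 endothelial, 3 of 19 tested stellate cell and none of 15 Kupffer cell markers fell, and 4, 5 and 6 did without the 2 arrays. Actin control probe sets at the 3' end, over those at the 5' end, gave a ratio that is higher with shorter RNA or cDNA. It was 6.96, 3.21 and 3.64 in the livers of rats 1 to 3, 3.16 to 4.30 at 0 h, 2.85 to 3.12 at 4 h and 1.95 to 2.50 at 24 and 48 h. The ranges of summed signals and these ratios keep array 3 of rat 1 in liver and at 0 h. In RNA from whole samples, fewer cells of a type and less RNA per cell cannot be told apart. The part of these differences in the results below was not tested, beyond a fit with the actin ratio as a covariate.

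**Figure D2:**
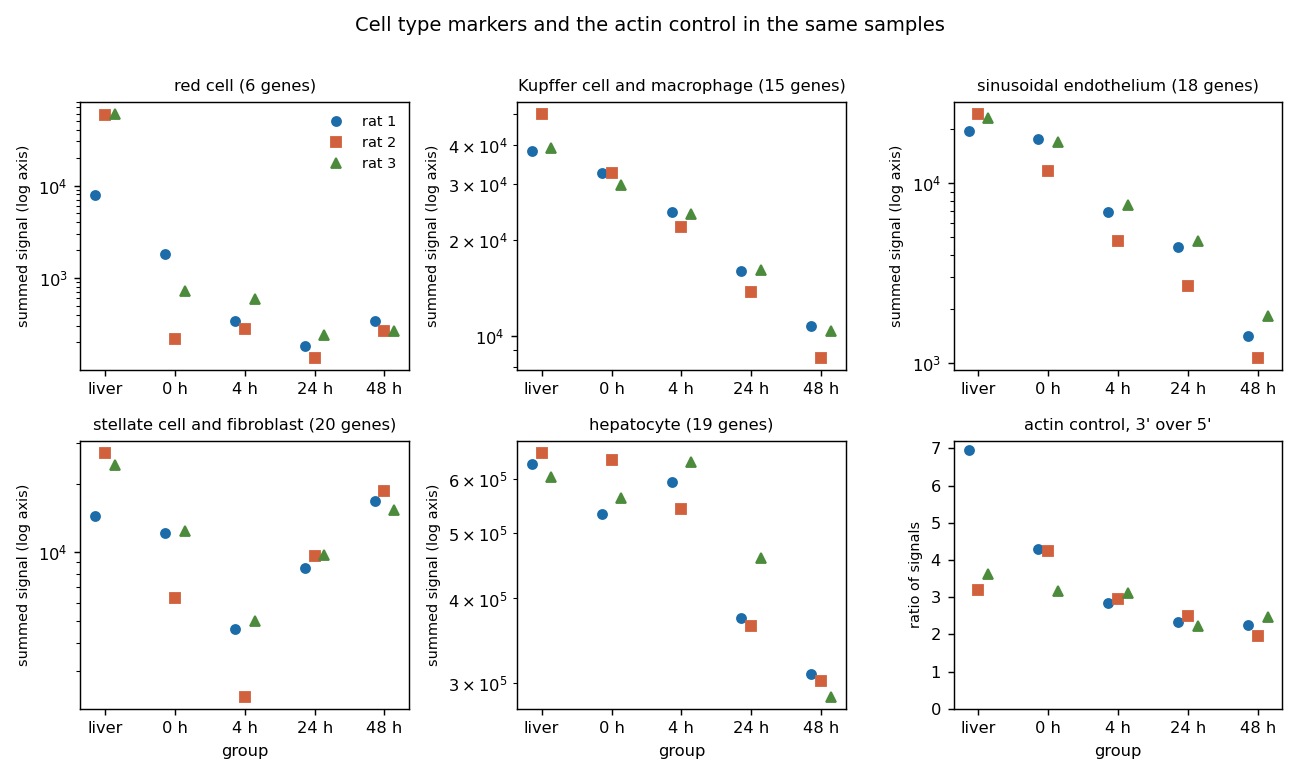
Summed signal (log axis) of 5 marker lists and the ratio of 3' to 5' actin control signals, in liver and in hepatocytes at 0, 4, 24 and 48 h; each point is 1 rat. Endothelial and Kupffer cell markers were lower at each later group, from 19680 to 24319 in liver to 1070 to 1821 at 48 h for endothelium, while stellate cell markers were lowest at 4 h.

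Egr1, Ier2, Zfp36 and Nr4a1 shared a course: highest in the cell pellet at 0 h, lower at 4 h and below the liver at 24 and 48 h. Egr1, a zinc finger transcription factor, had liver signals of 6754, 3056 and 2130 in rats 1, 2 and 3, the value of rat 1 being 3371 on its arrays 1 and 2. Its 0 h signals were 12338, 16481 and 15075, that of rat 1 being 22278 on 2 arrays. All 0 h values lay above all liver values on either reading. At 4 h the signals were 4900, 4578 and 7962, at 24 h 1214, 479 and 1084, and at 48 h 788, 844 and 878. From 0 h to 24 h no groups that followed each other overlapped, whereas those of 24 and 48 h did. Egr1 rose from liver to 0 h by 2.04 on the log2 scale (SE 0.40, adjusted p = 0.0445 with limma), and by 2.66 without the 2 arrays (SE 0.32, adjusted p = 0.000545). It then fell by 1.37 to 4 h (SE 0.40, adjusted p = 0.0164; 1.65 without the 2 arrays) and fell by 2.72 to 24 h (SE 0.40, adjusted p = 0.000176). At 48 h its mean was 836 against 3530 in liver, a log2 difference of -2.08 (SE 0.40, adjusted p = 0.000901 with limma; -1.74 without the 2 arrays). The 24 h value of rat 2, 479, was the lowest of the series for this gene, and the SD of the 24 h group was 0.73 on the log2 scale against 0.08 at 48 h.

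Ier2 had liver signals of 2370, 1745 and 1824, rat 1 being at 1163 on 2 arrays, and 0 h signals of 3622, 9747 and 6291, rat 1 being at 7392 on 2 arrays. At 4 h it was at 2136, 2636 and 2422, overlapping the liver as labelled and above every liver value without the 2 arrays. At 24 h it was at 939, 1049 and 858, and at 48 h at 563, 977 and 546. The rise at 0 h was 1.63 (SE 0.31, adjusted p = 0.0373 with limma), and 2.31 without the 2 arrays (SE 0.25, adjusted p = 0.00022). The fall was 1.34 from 0 to 4 h (adjusted p = 0.00395; -1.68 on the log2 scale without the 2 arrays, adjusted p = 0.000161) and again 1.34 from 4 to 24 h (adjusted p = 0.00375). Against liver, Ier2 was lower by 1.05 at 24 h (SE 0.31, adjusted p = 0.0129 with limma), a difference of -0.71 without the 2 arrays that still passed (adjusted p = 0.0294), and differed by -1.55 at 48 h (adjusted p = 0.00108; -1.21 without the 2 arrays). The 24 h difference was -0.64 and did not pass with each array centred on its median (adjusted p = 0.174).

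Zfp36 followed Egr1 most closely of all genes tested. Its liver signals were 5178, 4413 and 2292, rat 1 being at 3018 on 2 arrays, and its 0 h signals 8514, 9549 and 10412, rat 1 being at 13454 on 2 arrays. At 4 h the signals were 3343, 3656 and 4553, inside the range of the liver as labelled, at 24 h 1430, 1018 and 1504, and at 48 h 1270, 1055 and 1326. The mRNA of this decay factor thus stood at 0 h above every liver value and at 24 and 48 h below every liver value. The log2 rise at 0 h was 1.34 (SE 0.26, adjusted p = 0.0445 with limma), and 1.82 without the 2 arrays (SE 0.24, adjusted p = 0.000952). It fell by 1.31 to 4 h (adjusted p = 0.00173; -1.53 without the 2 arrays) and by 1.56 to 24 h (adjusted p = 0.00048). Against liver the 4 h difference was 0.03, or 0.29 without the 2 arrays, and did not pass, and the 48 h difference was -1.63 (SE 0.26, adjusted p = 0.000236; -1.37 without the 2 arrays).

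Nr4a1 was a dim gene and its late values sat near the middle of the array. It was above the array median on 8 of 9 liver arrays, 9 of 9 at 0 h, 7 of 8 at 4 h, 3 of 9 at 24 h and 1 of 8 at 48 h. Liver signals were 276, 254 and 149, with rat 1 at 195 on 2 arrays, and 0 h signals were 391.6, 847 and 532, with rat 1 at 565 on 2 arrays. Every 0 h value was above every liver value. At 4 h it was at 150, 139 and 109, at 24 h at 97.3, 65.8 and 79.3, and at 48 h at 114, 73.2 and 83.0. The difference between 0 h and liver was 1.36 and did not pass with the arrays as labelled (SE 0.30, adjusted p = 0.0684 with limma), but Nr4a1 rose by 1.70 without the 2 arrays (SE 0.25, adjusted p = 0.00199). The fall from 0 to 4 h was the largest of the 9 genes in that comparison, 2.09 on the log2 scale (SE 0.30, adjusted p = 0.000146; -2.27 without the 2 arrays, adjusted p = 1.87e-05). From 4 to 24 h the difference was -0.72, which did not pass as labelled (SE 0.30, adjusted p = 0.0717) and passed without the 2 arrays (SE 0.25, adjusted p = 0.0354). Against liver Nr4a1 differed by -1.45 at 24 h (adjusted p = 0.0015) and by -1.31 at 48 h (adjusted p = 0.00301), with no overlap of the groups, and by -1.29 and -1.14 without the 2 arrays.

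**Figure D3:**
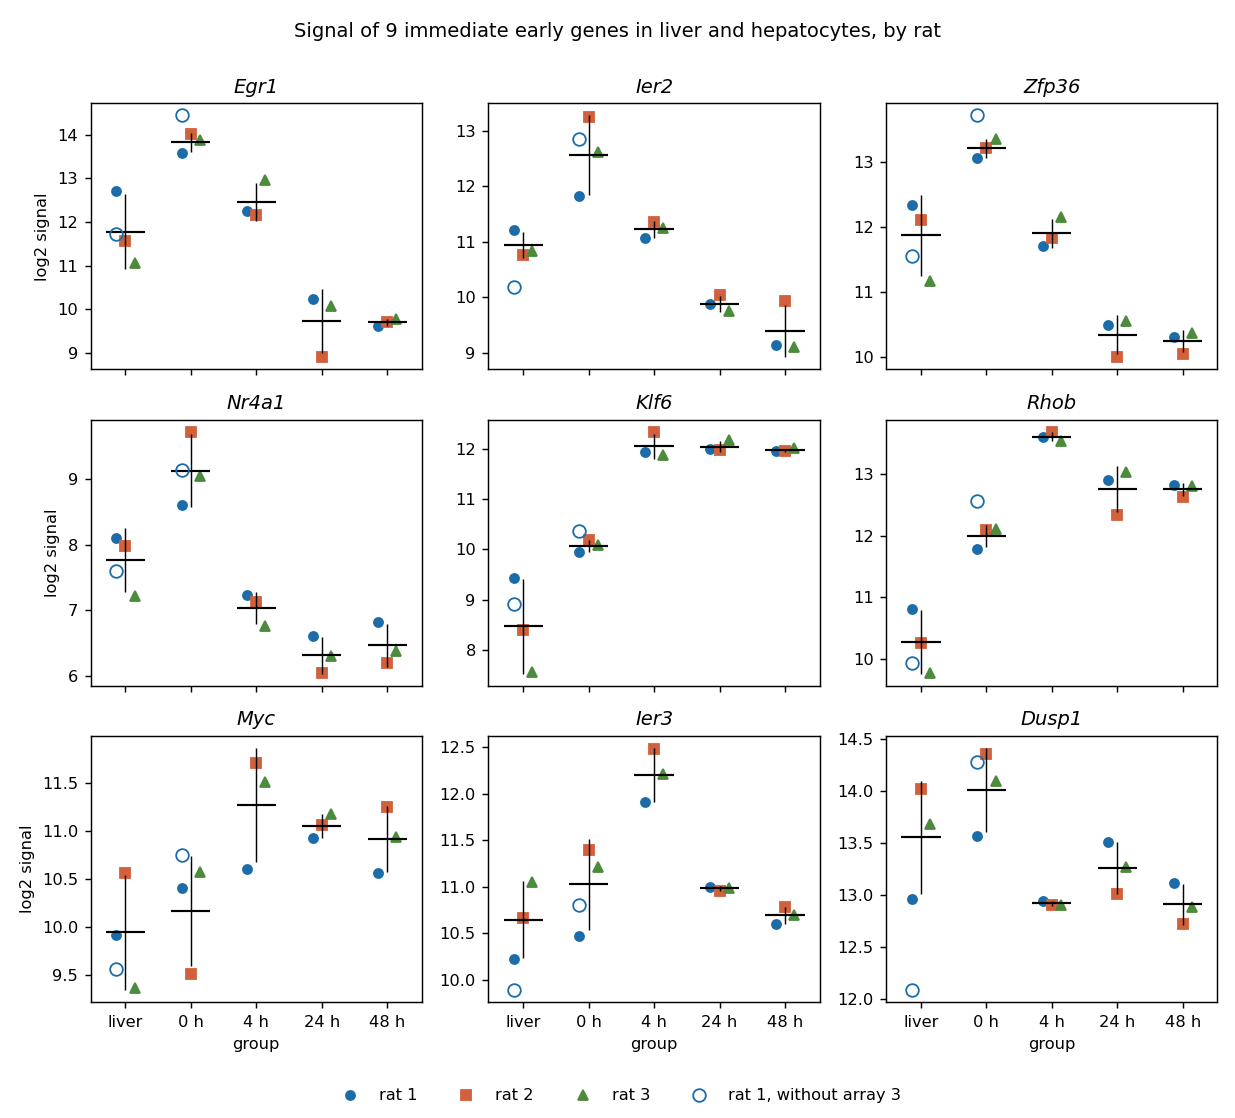
Log2 signal of 9 immediate early genes in liver and in hepatocytes at 0, 4, 24 and 48 h; filled symbols are rats 1 to 3 with all arrays, open circles rat 1 without its array 3, horizontal bars the mean of 3 rats and vertical bars 1 SD. The means of Egr1, Ier2, Zfp36, Nr4a1 and Dusp1 peak at 0 h, where Dusp1 overlaps liver. Those of Ier3, Rhob and Myc peak at 4 h, and Klf6 stays near 12 from 4 to 48 h.

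Klf6, Rhob and Myc took another course: their group means at 4, 24 and 48 h were above that of liver and each difference passed, less firmly so for Myc. Klf6, a zinc finger transcription factor of the Krüppel-like family, had liver signals of 693, 335 and 189, rat 1 being at 481 on 2 arrays, and 0 h signals of 983, 1159 and 1094, rat 1 being at 1316 on 2 arrays. At 4 h it was at 3924, 5213 and 3808, at 24 h at 4117, 4026 and 4629, and at 48 h at 3986, 3980 and 4138. The 3 plated groups overlapped one another and lay above all 0 h values, which lay above all liver values. Klf6 rose by 1.61 from liver to 0 h (SE 0.33, adjusted p = 0.0499 with limma; 1.93 without the 2 arrays, SE 0.26, adjusted p = 0.00105) and by a further 1.99 from 0 to 4 h (SE 0.33, adjusted p = 0.000428; 1.85 without the 2 arrays, SE 0.26, adjusted p = 0.000115). After that it differed by -0.01 between 4 and 24 h and by -0.07 between 24 and 48 h. Its mean at 48 h was 11.4-fold that of liver as labelled and 12.9-fold without the 2 arrays. Klf6 had 2 further probe sets, whose log2 signals correlated with those of the chosen probe set at r = 0.96 and 0.94 over the 15 samples. They differed in the size of the step from liver to 0 h, at 0.70 and 1.73, and both gained from 0 to 4 h, by 2.51 and 1.94.

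Rhob, a small GTPase of endosomes and the actin skeleton, had liver signals of 1794, 1225 and 879, rat 1 being at 983 on 2 arrays, and 0 h signals of 3526, 4379 and 4413, rat 1 being at 6024 on 2 arrays. At 4 h it was at 12358, 13112 and 11804, at 24 h at 7637, 5133 and 8390, and at 48 h at 7202, 6343 and 7133. Its highest values were those of 4 h. The values at 24 and 48 h lay above those of 0 h as labelled, but rat 1 at 0 h on 2 arrays, 6024, was above rat 2 at 24 h, 5133, and these times were not tested against 0 h. The rise at 0 h was 1.71 (SE 0.24, adjusted p = 0.0115 with limma; 2.26 without the 2 arrays, SE 0.20, adjusted p = 3.67e-05), and the rise from 0 to 4 h was 1.60 (SE 0.24, adjusted p = 0.000183; 1.35 without the 2 arrays). It fell by 0.85 from 4 to 24 h (SE 0.24, adjusted p = 0.0121) and differed by 0.00 between 24 and 48 h. Its 4 h mean was 9.97-fold that of liver, and 12.2-fold without the 2 arrays. At 48 h it was 5.53-fold that of liver (log2 2.47, SE 0.24, adjusted p = 2.77e-06). That ratio was 6.75 without the 2 arrays.

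Myc, the helix-loop-helix factor that drives growth and ribosome production, had liver signals of 966, 1512 and 658, rat 1 being at 756 on 2 arrays, and 0 h signals of 1362, 731 and 1522, rat 1 being at 1729 on 2 arrays. Rat 2 was the highest of the livers and the lowest of the pellets, so the groups overlapped and the difference of 0.22 did not pass (SE 0.36, adjusted p = 0.838 with limma), nor did that of 0.45 without the 2 arrays (adjusted p = 0.585). At 4 h Myc was at 1554, 3348 and 2912, at 24 h at 1943, 2136 and 2315, and at 48 h at 1509, 2435 and 1967. The values at 24 h lay above every liver value, while rat 1 at 48 h, 1509, was just under the 1512 of the liver of rat 2. Myc rose by 1.11 from 0 to 4 h (SE 0.36, adjusted p = 0.026), a step that was 0.99 and did not pass without the 2 arrays (SE 0.38, adjusted p = 0.0545), with rat 1 then lower at 4 h than at 0 h. Against liver it was higher by 1.33 at 4 h (adjusted p = 0.0086), by 1.11 at 24 h (adjusted p = 0.0214) and by 0.97 at 48 h (adjusted p = 0.0387), and these 3 calls also stood without the 2 arrays, at 1.44, 1.22 and 1.09. Klf6 and Rhob kept their calls against liver at these times in all 29 alternative fits. Myc lost its call in 4 of them at 4 h, in 10 at 24 h and in 12 at 48 h. Its SD among rats, 0.57 to 0.60 on the log2 scale in liver, at 0 h and at 4 h, was larger than the median SD of all genes, and without the 2 arrays it was 0.64 in liver, where the median of all genes was 0.23.

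Ier3 peaked at a single time point, 4 h. Liver signals were 1201, 1622 and 2126, with rat 1 at 950 on 2 arrays, and 0 h signals were 1419, 2691 and 2382, with rat 1 at 1784 on 2 arrays. These groups overlapped. At 4 h Ier3 was at 3852, 5738 and 4745, above every value of the other 4 groups, at 24 h at 2053, 1988 and 2035, and at 48 h at 1549, 1764 and 1663. The difference at 0 h was 0.38 (SE 0.25, adjusted p = 0.554 with limma; 0.60 without the 2 arrays, adjusted p = 0.221) and did not pass. Ier3 rose by 1.18 from 0 to 4 h (SE 0.25, adjusted p = 0.00229; 1.07 without the 2 arrays, adjusted p = 0.00494) and fell by 1.22 from 4 to 24 h (SE 0.25, adjusted p = 0.00166). Its 4 h mean was 2.94-fold that of liver (adjusted p = 0.000242), and 3.18-fold without the 2 arrays. At 24 and 48 h the log2 differences from liver were 0.33 and 0.04, or 0.45 and 0.16 without the 2 arrays, and did not pass.

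Dusp1, the MAP kinase phosphatase, passed in 1 comparison only, that of 4 h with 0 h. Liver signals were 7953, 16616 and 13185, and rat 1 was at 4342 on its arrays 1 and 2, far from the other rats. At 0 h the signals were 12116, 21042 and 17537, with rat 1 at 19867 on 2 arrays. At 4 h they were 7865, 7662 and 7683, the tightest group of the series for this gene with an SD of 0.02 on the log2 scale, at 24 h 11666, 8225 and 9844, and at 48 h 8873, 6762 and 7576. The difference between 0 h and liver was 0.45 (SE 0.26, adjusted p = 0.483 with limma), or 0.98 without the 2 arrays (SE 0.36, adjusted p = 0.162), and did not pass, although on the latter reading the groups did not overlap. Dusp1 fell by 1.09 from 0 to 4 h (SE 0.26, adjusted p = 0.00491; 1.33 without the 2 arrays). A further Dusp1 probe set, which correlated with the chosen probe set at r = 0.79 over the 15 samples, had group means of 1045 in liver, 2714 at 0 h, 1010 at 4 h, 1350 at 24 h and 1165 at 48 h, a log2 difference of 1.38 between 0 h and liver. The 2 probe sets thus gave the same direction at 0 h and at 4 h and a different size of the step at 0 h. Against liver they went opposite ways at 24 and 48 h with the arrays as labelled. Means of the further probe set were above its liver mean at both times. Those of the chosen probe set, 9812 and 7689, were below its liver mean of 12033.

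Between liver and 0 h, the comparison that covers cell isolation, 5 of the 9 genes rose (Egr1, Ier2, Klf6, Zfp36 and Rhob), none fell, and 4 did not pass. Over all 10643 genes, 0.141% rose and 0.432% fell. The 9 genes were not chosen independently of these data, so this contrast is a description and not a test. Without the 2 arrays 6 rose, Nr4a1 being added, and none fell, where 0.338% of all genes rose and 3.40% fell. The median log2 difference of the 9 genes was then 1.82 and that of all genes -0.08. The count as labelled depended on the rats: it was 0 in 9 without rat 2 and without rat 3, and 0 in 9 when either the liver or the 0 h sample of rat 2 or rat 3 was left out. In none of these fits did more than 2 of all 10643 genes rise or more than 1 fall. With the rat as a block, which pairs the samples of 1 animal, Ier2 and Rhob passed, while Egr1 (adjusted p = 0.0502), Klf6 and Zfp36 (both 0.0545) did not. Once the 2 arrays were left out, 6 passed with the block, and 5 passed whichever rat was left out. With the block, 98 of all genes then rose and 767 fell.

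From 0 to 4 h, when the cells attach in serum, all 9 genes changed: 4 rose (Ier3, Klf6, Myc and Rhob) and 5 fell (Egr1, Ier2, Zfp36, Nr4a1 and Dusp1). Of all genes, 16.3% rose and 22.7% fell. Without the 2 arrays the counts were 3 and 5, with 16.4% and 22.4% of all genes. All 9 genes moved the same way in each of the 3 rats with the arrays as labelled. With the actin ratio as a covariate 7 of the 9 passed, Egr1 (-1.03, adjusted p = 0.0688 with limma) and Myc (0.97, adjusted p = 0.0801) being the exceptions. Without the 2 arrays that fit had 8 of the 9 passing, where 1687 of all genes rose and 2168 fell. Egr1 was then at -1.58 (adjusted p = 0.00536 with limma), and Myc was the exception at 0.76 (adjusted p = 0.157). From 4 to 24 h, 5 fell (Egr1, Ier2, Ier3, Zfp36 and Rhob) and none rose, where 26.3% of all genes rose and 13.5% fell. From 24 to 48 h none of the 9 passed with limma and none had an unadjusted p under 0.05, where 2.51% of all genes rose and 1.78% fell. The largest of these last differences was that of Ier2, -0.50 (SE 0.31).

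**Figure D4:**
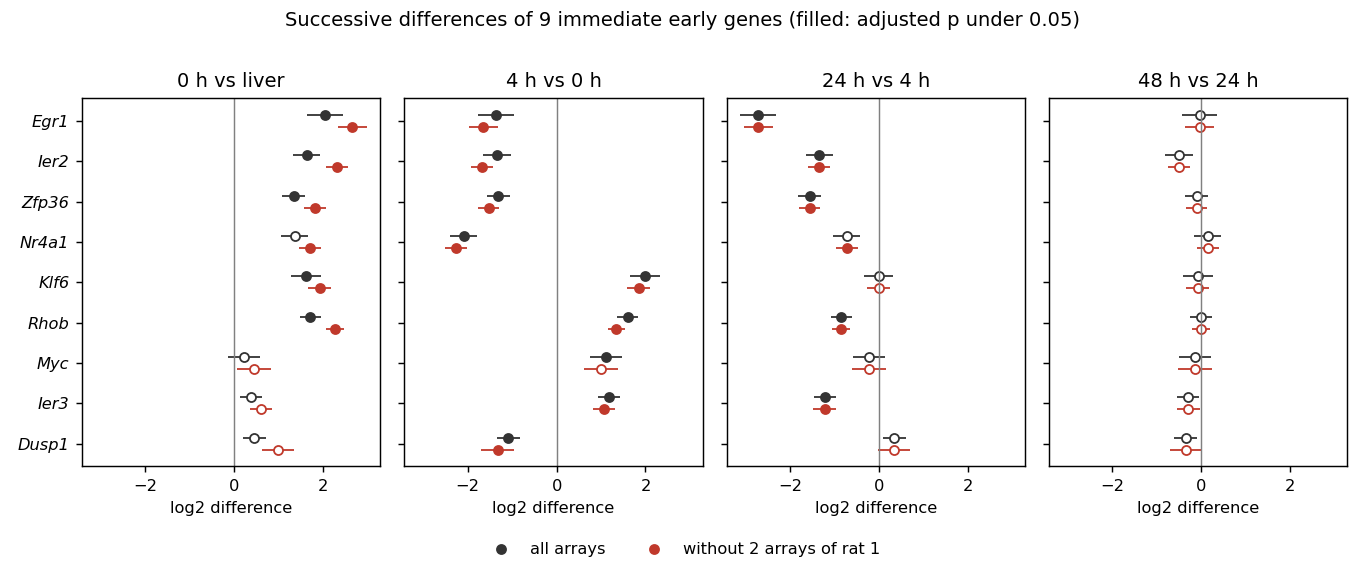
Log2 difference of each gene in 4 successive comparisons, with bars of 1 SE; black points use all arrays, red points leave out array 3 of rat 1 in liver and at 0 h, and filled points have an adjusted p under 0.05. Between liver and 0 h all differences are above 0, between 0 and 4 h they divide into 4 above and 5 below, and between 24 and 48 h none is filled.

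Set against liver, the 9 genes ended on both sides. At 4 h, 4 were higher (Ier3, Klf6, Myc and Rhob) and none was lower, where 16.4% of all genes were higher and 29.8% lower. Without the 2 arrays Egr1 joined them at 1.01 (SE 0.32, adjusted p = 0.021 with limma), where 16.5% of all genes were higher and 30.8% lower, while Ier2 at 0.63 did not pass (adjusted p = 0.0506) but did with the rat as a block (adjusted p = 0.0137). At 24 h, 3 were higher (Klf6, Myc and Rhob) and 4 lower (Egr1, Ier2, Zfp36 and Nr4a1), where 23.7% and 23.9% of all genes were. The counts were again 3 and 4 at 48 h, where 25.4% of all genes were higher and 22.6% lower. Leaving out the 2 arrays changed no call at 24 or 48 h, where 23.9% and 24.3%, and 25.2% and 23.1%, of all genes were higher and lower. These comparisons share their liver samples.

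The counts against liver moved with the scale and with the measure of RNA length. Centring the arrays on their medians moved the all-gene median up by 0.38 to 0.46 in the 4 comparisons with liver, so that 2882 genes were higher and 1344 lower at 4 h, in place of 1745 and 3176, 4234 and 1457 at 24 h, in place of 2525 and 2542, and 4318 and 1442 at 48 h, in place of 2701 and 2402. Between liver and 0 h the split was 19 and 18 in place of 15 and 46. On that scale Egr1 was also higher than liver at 4 h, by 1.13 (adjusted p = 0.0422 with limma), and no gene of the 9 that was called changed its direction. With the actin ratio as a covariate, 4 of the 9 genes passed against liver at 24 h and 4 at 48 h, in place of 7: Egr1, Ier2, Myc and Nr4a1 no longer passed, and Dusp1 fell by 0.95 at 24 h (adjusted p = 0.0398 with limma) and by 1.37 at 48 h (adjusted p = 0.0106). These Dusp1 differences are of the chosen probe set, and the means of its further probe set lay above liver at both times. Over all genes, 1582 were then higher and 1633 lower at 24 h, and 1456 and 1384 at 48 h. The ratio had a mean of 4.60 in liver and 2.22 at 48 h, so it differed along with the groups. Its part and that of culture cannot be fully told apart. The same fit gave 7 and 5 without the 2 arrays, with Dusp1 among them at both times (-1.18, adjusted p = 0.0327, and -1.66, adjusted p = 0.00963), Myc at neither (0.59, adjusted p = 0.461, and 0.38, adjusted p = 0.671), and Egr1 and Nr4a1 at 24 h only. Over all genes that fit had 1503 higher and 1584 lower at 24 h, and 1359 and 1339 at 48 h. With all arrays, the covariate at 4 h had Dusp1 lower than liver (-1.04, adjusted p = 0.00746) and Myc no longer passing (adjusted p = 0.06).

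Over the 15 samples, the log2 signals of the 9 genes were compared with one another by Pearson's r, which is given as a description, since the samples are 5 groups of the same 3 rats. Among the 36 pairs, 7 had an r above 0.8 without the 2 arrays. The closest pair was Egr1 and Zfp36 (r = 0.98), and Klf6 and Rhob were at 0.93. The lowest r was that of Nr4a1 and Klf6, -0.52, and with the arrays as labelled that of Klf6 and Dusp1, -0.63. Of all 10643 genes, those most like Egr1 with the arrays as labelled were Zfp36, Pls1 and Fos (r = 0.98, 0.93 and 0.93), and those most like Zfp36 were Egr1, Gadd45g and Nt5e (0.98, 0.94 and 0.94). Those most like Ier2 were Gadd45g, Mettl9 and Ebag9 (0.94, 0.93 and 0.93), and those most like Nr4a1 were Irs1, Fos and Hist4h4 (0.94, 0.92 and 0.92). For Klf6 they were Gadd45b, Sars1 and Sat1 (0.97, 0.95 and 0.94), and for Rhob Klf6, Gadd45b and Fam91a1 (0.94, 0.93 and 0.92). Ier3 was nearest to Tiparp, Mtpap and Trmt10c (0.97, 0.95 and 0.94). Myc, at 0.88 with Tada2a, 0.88 with Ddx20 and 0.87 with Polr1g, and Dusp1, at 0.88 with Ubr2, 0.87 with Gphn and 0.86 with Naa60, had less close neighbours. Leaving out the 2 arrays kept the nearest gene of 7 of the 9, the exceptions being Myc (Ddx20) and Dusp1 (Gphn), and put Ier2 among the 3 nearest of Egr1 in place of Pls1.

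**Figure D5:**
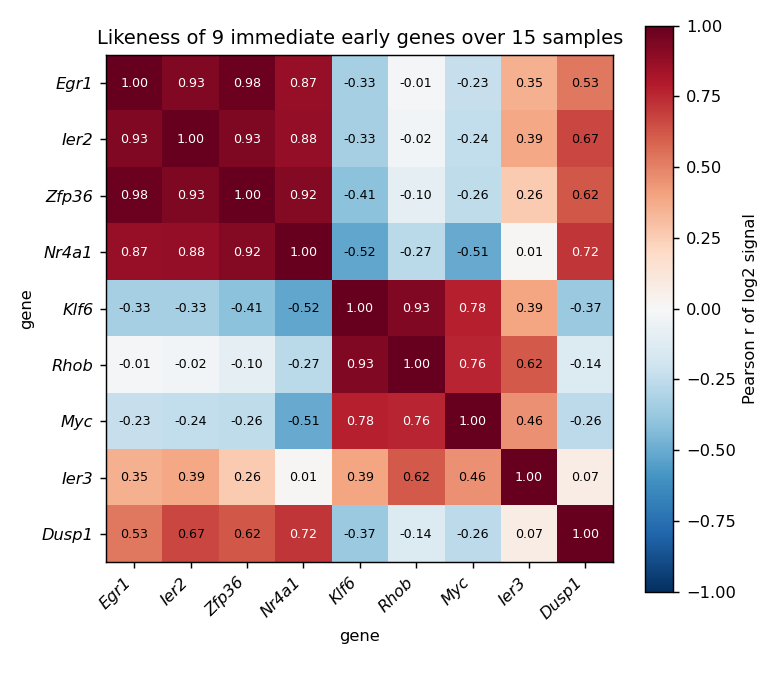
Pearson r between the log2 signals of 9 immediate early genes over 15 samples, without array 3 of rat 1 in liver and at 0 h; red is above 0 and blue below. Egr1, Ier2, Zfp36 and Nr4a1 form a block at 0.87 to 0.98, and Klf6, Rhob and Myc a block at 0.76 to 0.93.

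Relatives of the 9 genes moved both ways. Of 27 tested relatives (32 listed), none passed between liver and 0 h, where 0.141% of all genes rose and 0.432% fell. Without the 2 arrays 1 rose and 1 fell, where 0.338% and 3.40% of all genes did: the zinc finger factor Egr2 rose by 1.63 (adjusted p = 0.00977 with limma) and the GTPase Rhoc fell by 0.84. From 0 to 4 h, 7 relatives rose and 5 fell, where 16.3% and 22.7% of all genes did, and the median log2 difference was 0.01 against -0.15 over all genes. Egr2 rose by 2.47 in that step, where Egr1 fell, and Zfp36l1 fell by 0.93, as Zfp36 did. The phosphatases Dusp8 (3.49) and Dusp2 (2.52) passed upward and Dusp4 (-2.46) downward, but these 3 were dim. Mean signals at 0 and 4 h were 6.56 and 73.5 for Dusp8, 16.1 and 92.4 for Dusp2, and 98.2 and 17.8 for Dusp4, where the array medians were 87.7 to 116 at 0 h and 79.7 to 115 at 4 h, so the sizes of these differences are not well measured. Zfp36l1 and Dusp4 are named here after their values were seen. Btg3, an antiproliferative relative of Btg2, rose by 2.51. From 4 to 24 h, 3 relatives rose and 6 fell (26.3% and 13.5% of all genes), among them Egr2, which fell by 2.93. At 48 h, 7 relatives were above liver and 6 below it, shares near those of all genes (25.4% and 22.6%). Among them were Btg3 (2.24) and Dusp10 (2.10), which were higher, and Dusp6, a phosphatase that acts on ERK, which was lower (-1.69).

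Other early response genes, AP-1 genes and chemokines among them, numbered 50 tested of 54 listed. Between liver and 0 h, 9 of the 50 rose and none fell, where 0.141% and 0.432% of all genes did, with a median log2 difference of 0.39 against -0.08 over all genes. Atf3 (4.21), Fos (4.09), Gdf15 (3.76) and the chemokine Cxcl1 (2.77) had the largest differences. Without these 2 arrays their differences were 5.60, 5.00, 5.07 and 3.38, and the counts were 15 and 1, where 0.338% of all genes rose and 3.40% fell. From 0 to 4 h, 22 rose and 12 fell (16.3% and 22.7% of all genes), with Maff (4.52), Plaur (4.23) and Ccn2 (4.11) rising most, and Fos fell by 3.86. From 4 to 24 h, 5 rose and 21 fell (26.3% and 13.5% of all genes). From 24 to 48 h, 2 changed, where 2.51% of all genes rose and 1.78% fell: Nfkbiz fell by 2.61 and Cxcl1 fell by 2.02. The kinases and factors that act upstream of such genes, 29 tested of 40 listed, had none called between liver and 0 h as labelled. Without the 2 arrays 2 of them fell, where 3.40% of all genes did. From 0 to 4 h, 8 rose and 5 fell (16.3% and 22.7% of all genes), and from 4 to 24 h, 3 rose and 8 fell (26.3% and 13.5%). Their median log2 differences from 0 to 4 h and from 4 to 24 h were 0.19 and -0.20, against -0.15 and 0.14 over all genes. The MAP kinase kinase Map2k3 rose by 2.49 and then fell by 2.04 in these steps, Mapkapk3 rose by 4.09 in the earlier step, and the receptor Egfr fell by 1.90 in the later step.

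For Myc and Zfp36, lists of partners and targets were set beside the gene itself. Of all genes, 16.3% rose and 22.7% fell from 0 to 4 h, and 26.3% rose and 13.5% fell from 4 to 24 h. Of 22 tested Myc target genes (24 listed), none passed between liver and 0 h, 14 rose and 1 fell from 0 to 4 h, and none rose and 8 fell from 4 to 24 h. The median log2 difference from 0 to 4 h was 1.12 against -0.15 over all genes, and the largest rises were those of the nucleolar genes Nolc1 (2.32), Nop56 (2.14) and Wdr12 (1.92) and of the spermidine synthase gene Srm (1.89). Nolc1 and Nop56 fell by 1.17 and 1.14 from 4 to 24 h, when Myc differed by -0.22 and did not pass. Against liver, 11 targets were higher at 48 h and 3 lower (25.4% and 22.6% of all genes). Among 10 tested Myc partners (12 listed), Max, with which Myc binds DNA, rose by 0.76 from 0 to 4 h and fell by 0.81 from 4 to 24 h, and the antagonists Mxd4 and Mxi1 rose by 1.00 and 0.90 from 4 to 24 h. Of 32 tested genes of deadenylation and mRNA decay (37 listed), the process that Zfp36 serves, none passed between liver and 0 h, 2 rose and 1 fell from 0 to 4 h (4 and 1 without the 2 arrays), and 4 rose and 2 fell from 4 to 24 h. The medians were 0.09 and 0.05, against -0.15 and 0.14 over all genes, the largest of the called differences being that of the exosome gene Exosc1, 0.96, at 4 h.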

How the data were processed

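RNA of 3 male Sprague Dawley rats in 5 groups was hybridised to Affymetrix RG230-2 arrays, 43 in all. Per the labels and methods, the authors computed MAS5 signal intensities (the affy package is also named) and scaled each array; the deposited intensities have a 2% trimmed mean of 500 on every array. The authors left out 1 array at 4 h and 1 at 48 h. Here log2 intensities were averaged over the repeat arrays of a rat, and probe sets with 1 listed gene were kept (20826 of 31099) if above the array median in 5 of 43 arrays, with the highest mean standing for a gene. limma 3.58.1 in R 4.3.3 (lmFit, eBayes) was fitted to all 15 samples with no rat term, with 7 comparisons and Benjamini-Hochberg adjustment over 10643 genes in each; a gene was called at an adjusted p under 0.05. The fit was tested on simulated data. The rat numbers pair samples of the same animal. Deviations from the group means correlated at a median r of 0.34 for the same rat (30 pairs) and -0.18 for different rats (60 pairs). Such deviations cancel out within a group, so the value for different rats largely follows from that for the same rat. It is not separate support for the pairing. The livers of rats 1 and 2 were near 0 with their own cultures (-0.00 and -0.06). Named were the 9 genes with every rat's value, the 3 genes of highest r for each, and up to 4 genes of each other list by size of difference among those called. Genes and lists were chosen with earlier results of these data known. An array has no read depth; the number of arrays and rats limits the precision. Promoters are from RefSeq (GRCr8).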

Additional observations from a re-analysis of the deposited data

Results flagged for a closer look

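In 45 sets of 8 or 9 arrays, 9 genes in 5 groups, an array stood apart from the rest of its group 15 times, by Dixon's ratio of the gap beside the farthest array to the whole range of the group. Chance marks about 1 in 20 sets (a rate that holds for independent values), and arrays of the same rat are not independent. Array 3 of the rat 1 liver was the highest of its group for Egr1 (ratio 0.794), Ier2 (0.696), Zfp36 (0.588) and Rhob (0.756). Array 3 of rat 1 at 0 h was the lowest of its group for Egr1 (0.732), Ier2 (0.772), Ier3 (0.58), Klf6 (0.647), Zfp36 (0.598), Rhob (0.767), Nr4a1 (0.63) and Dusp1 (0.868). These 12 are all on the 2 arrays that went against their labels. The other 3 were single arrays, Ier2 on array 3 of rat 2 at 24 h (highest, 0.504, signal 1238), Zfp36 on array 1 of rat 2 at 48 h (lowest, 0.574, signal 907) and Rhob on array 3 of rat 2 at 4 h (highest, 0.539, signal 14147).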

How the results depend on the processing

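Of 9 genes, 5 were called between liver and 0 h as labelled, where 15 of 10643 genes rose and 46 fell. The count was 1 with no filter on low signals, where 4 of 14217 genes rose and 8 fell. It was 2 with the rat as a replicate block (paired by animal), where 12 of all genes rose and 51 fell. With only the 2 groups in the fit it was 0, where 1 of all genes rose and 2 fell. It was 0 to 6 when single rats or samples were left out. The cause of these losses was not tested. Counts when single rats or samples were left out were 6 to 9 from 0 to 4 h (9 called), 3 to 5 from 4 to 24 h (5 called, 3 without rat 2 and the 2 arrays of rat 1, 6 without those 2 arrays alone), 0 from 24 to 48 h, and against liver 3 to 6 at 4 h, 5 to 7 at 24 h and 6 to 7 at 48 h. With the actin ratio as a covariate 4 were called against liver at 24 h and 4 at 48 h, in place of 7. Over all genes that fit had 1582 higher and 1633 lower at 24 h, and 1456 and 1384 at 48 h. Without the 2 arrays and with each array centred on its median, 7 were called at 4 h against liver, in place of 4. In that setting 3023 of all genes were higher and 1347 lower. The replicate block changed no other call with all arrays, and with the 2 arrays left out it added Ier2 at 4 h against liver. Each difference of 1 gene in 1 comparison had 29 alternative fits, which share samples, and the counts that follow are of these fits. Over all genes and comparisons, 1588 kept the direction and side of the threshold, 119 lost the call and 58 gained it. Another 62, all without a call, changed sign, and no called difference was reversed. Late Nr4a1 signals lay near the array median.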
